A study of Mus musculus with 24 samples.

Results

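The interferon-stimulated genes described here are 35 mouse genes known to be induced by interferon. They were chosen by symbol, out of 23478 symbols in the count table, with earlier results of these data known. All 35 were found, and 31 of them passed the filter on low counts that left 12625 genes for testing. Irf7, Oas2, Mx1 and Mx2 did not pass it and are given by their levels only. The cells were 4T1-T cells, a line of the 4T1 mouse mammary carcinoma family, recovered from primary tumors or from lung metastases. Every group carried an shRNA, was selected in 6-thioguanine (6TG, a purine analogue that 4T1 cells survive and host cells do not) and was cultured in DMEM to which non-essential amino acids were added. The hairpins were shRenilla, the control, or shAsns-1 or shAsns-2, both named for asparagine synthetase (Asns). The 6 groups are tumor shRenilla, tumor shAsns-1, tumor shAsns-2, lung shRenilla, lung shAsns-1 and lung shAsns-2, with 4 libraries each, lettered A to D. The labels do not say whether the letters are separate mice, cultures or preparations, how many clones a line holds, or what promoter drives the hairpin. All p-values therefore measure only the spread between these libraries, which may be technical.

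Type I interferons bind the receptor pair Ifnar1 and Ifnar2, whose kinases Jak1 and Tyk2 phosphorylate Stat2. Stat2 and Irf9 are parts of a complex that binds the interferon-stimulated response element (ISRE), a repeated GAAA motif, near the start of target genes. Interferon gamma acts through Ifngr1 and Ifngr2, and Jak1 and Jak2, reaches genes through a different site (GAS), and also raises Irf1. The induced proteins sense viral RNA, block its translation or replication, or restrain the response itself. Tumor cells can show such a program when cultured with no virus present.

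Total counts per library ran from 8.48 M to 38.05 M, lowest in tumor shAsns-2 A. Asns, the hairpins' target, averaged 170 ± 17.1 CPM (counts per M, scaled for library composition by TMM; mean ± SD, n = 4 here and throughout) in tumor shAsns-1 against 82.8 ± 15.9 in tumor shRenilla and 36.8 ± 10.3 in tumor shAsns-2. In lung it stood at 194 ± 18.2 CPM in shAsns-1 against 63.6 ± 7.89 in shRenilla and 35.8 to 51.3 in the shAsns-2 libraries. The target was thus higher, not lower, in the libraries labelled shAsns-1, and directions given here are therefore between labels, not between known Asns levels. The labelled epithelial origin could be read from 8 mammary epithelial markers, all of which passed the filter, with summed levels of 378 to 1027 CPM over the 24 libraries. The sums hide unlike markers. Cdh1 ranged from 151 to 288 CPM in tumor shRenilla and from 18.6 to 24.5 in lung shAsns-1, Krt18 from 181 to 257 and from 199 to 239. In 2 lung libraries many genes departed from the group: 787 genes lay at least 2-fold below the rest in shRenilla B, and 768 at least 2-fold above it in shAsns-2 D. Cells here are bulk cultures, where fewer cells of a type and less RNA per cell cannot be told apart.

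The promoters of the genes show the element the pathway acts on. Of the 35 genes, 27 matched the RefSeq promoter table (GRCm38.p6, 250 bases before to 50 after each start), with 33 promoters in all. An ISRE-type motif, GAAANNGAAA on either strand, was found for 14 of the 27 genes (51.9%), against 1079 of 27025 genes in the table (3.99%). Counted by promoter the shares were 42.4% of 33 and 3.44% of 32851. A GAS-type motif, TTCNNNGAA, which reads the same on both strands, was found for 8 of 27 genes (29.6%) against 9.55% of all genes. The motifs overlapped each other in 2 of the members' promoters. Such a match is a run of letters and not a measured binding site.

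The 250 bases before the start for the genes with such a motif that varied most among libraries at a mean of at least 5 CPM (Gbp2, Gbp3 and Stat2) show how the element sits in a member's promoter. Ifit3, Isg15 and Ifi44 were added, chosen after their values were seen. Capitals mark the ISRE-type motif, which lies on the opposite strand where it reads TTTC. The windows are chr3:142620413-142620662, plus strand, chr3:142559794-142560043, plus strand and chr10:128270248-128270497, plus strand for the first 3. They are chr19:34583279-34583528, plus strand, chr4:156200819-156201068, minus strand and chr3:151749911-151750160, minus strand for the others.
Gbp2: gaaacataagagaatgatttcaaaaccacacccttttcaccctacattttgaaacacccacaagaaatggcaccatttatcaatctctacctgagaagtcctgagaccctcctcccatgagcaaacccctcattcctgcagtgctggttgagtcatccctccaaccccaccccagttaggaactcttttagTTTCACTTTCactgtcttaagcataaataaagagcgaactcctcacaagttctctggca
Gbp3: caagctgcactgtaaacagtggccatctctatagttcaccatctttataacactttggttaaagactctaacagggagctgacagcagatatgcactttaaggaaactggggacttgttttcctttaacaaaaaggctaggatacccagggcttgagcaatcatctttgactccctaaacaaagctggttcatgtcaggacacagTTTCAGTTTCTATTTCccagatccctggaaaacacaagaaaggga
Stat2: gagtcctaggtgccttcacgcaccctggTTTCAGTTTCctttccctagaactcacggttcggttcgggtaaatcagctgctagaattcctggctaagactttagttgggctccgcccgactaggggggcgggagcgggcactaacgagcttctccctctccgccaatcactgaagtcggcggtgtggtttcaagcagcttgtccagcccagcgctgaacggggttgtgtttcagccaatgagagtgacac
Ifit3: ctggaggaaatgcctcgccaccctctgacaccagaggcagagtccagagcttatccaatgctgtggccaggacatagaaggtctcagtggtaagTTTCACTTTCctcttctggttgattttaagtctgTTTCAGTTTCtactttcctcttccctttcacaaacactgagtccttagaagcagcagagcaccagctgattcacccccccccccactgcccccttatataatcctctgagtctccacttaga
Isg15: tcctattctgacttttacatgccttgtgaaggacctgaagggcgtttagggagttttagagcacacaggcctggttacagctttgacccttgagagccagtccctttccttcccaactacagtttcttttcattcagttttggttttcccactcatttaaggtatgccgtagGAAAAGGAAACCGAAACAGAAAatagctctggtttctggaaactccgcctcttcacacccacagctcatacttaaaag
Ifi44: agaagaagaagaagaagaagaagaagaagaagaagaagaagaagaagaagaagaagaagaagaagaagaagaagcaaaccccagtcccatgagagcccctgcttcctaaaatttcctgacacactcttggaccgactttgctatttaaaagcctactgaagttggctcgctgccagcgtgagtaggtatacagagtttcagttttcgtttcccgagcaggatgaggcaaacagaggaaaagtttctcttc

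Isg15, a ubiquitin-like modifier, had 3 overlapping motifs in 1 run, the first base at -78 from the start. Ifit3, which binds viral RNA with its relatives, had 2 separate motifs at -156 and -122. Gbp3 had 2 overlapping motifs from -45 and Gbp2, its neighbour on chromosome 3, had 1 at -59. The window of Ifi44 held none in this spelling, although Ifi44 was the member most raised in the library described next. In Ifih1 and Ifitm3 the motifs lay just after the start, at 33 in Ifih1 and at 3 and 20 in Ifitm3.

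Levels differed widely among the 35 genes. Per kilobase of exon (GENCODE M21), Ifitm3, a membrane protein that blocks virus entry, was highest at a mean of 353 CPM per kb over the 24 libraries. Trim25 (a ubiquitin ligase that acts on RIG-I) followed at 11.6 CPM per kb, then Ifi35 at 10.2, Irf1 at 9.22 and Eif2ak2 at 7.24. The lowest were Oas3 at 0.033, Mx1 at 0.0212 and Oas2 at 0.0116 CPM per kb. Expression was thus that of a cell with Ifitm3, Trim25 and the kinase Eif2ak2 (PKR) present throughout and with Oas2, Oas3, Mx1 and Mx2 near the limit of counting. Several members belong to families of related genes (Oas1a, Ifit1 and Ifit3, Ifitm3, Gbp2 and Gbp3, Mx1 and Mx2), where the counting could have split reads from stretches that family members share. Dtx3l and Parp9 overlap by 682 bases on opposite strands, and with no strand setting stated their reads in that stretch cannot be told apart.

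Ranges over the 24 libraries, in CPM, follow by role. Among the transcription factors Stat2 ranged from 2.97 to 7.34, Irf1 from 25.0 to 56.1 and Irf9 from 4.55 to 8.35, while Irf7, the amplifier of the type I response, lay between 0 and 1.00. Among the RNA sensors Ifih1 (MDA5) ranged from 8.28 to 15.9, Ddx58 (RIG-I) from 28.3 to 41.7, Eif2ak2 from 27.9 to 45.6, Adar from 15.9 to 23.1 and Dhx58 (LGP2) from 0.371 to 1.78. In these sensors other than Dhx58 the highest library was less than 2-fold above the lowest. In the OAS family, whose active enzymes make the activator of RNase L, Oas1a ranged from 1.47 to 6.95, Oasl2 from 1.67 to 14.1 and Oas3 from 0.0379 to 0.618.

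Among the effectors, Ifit1 ranged from 1.04 to 18.7 CPM, Ifit2 from 12.5 to 28.5, Ifit3 from 0.239 to 12.8, the radical enzyme viperin (Rsad2) from 0.750 to 4.09 and its neighbour Cmpk2 from 0.285 to 4.32. In the ISG15 pathway Isg15 ranged from 0.481 to 5.02, its protease Usp18 from 0.304 to 8.42, Trim25 from 53.4 to 87.1 and Dtx3l from 13.0 to 19.7. The PARP family members Parp9, Parp12 and Parp14 ranged from 7.82 to 14.1, 19.4 to 30.3 and 1.67 to 4.90. Ifit3 and Usp18 had far wider ranges, relative to their lowest library, than Parp12 and Dtx3l. At the membrane, Bst2 (tetherin) ranged from 0.160 to 2.28, Ifitm3 from 124 to 311 and Rtp4 from 2.85 to 18.4. Ifi35 ranged from 12.5 to 20.8, Ifi44 from 0.598 to 28.1 and Xaf1 from 5.26 to 15.4. The guanylate-binding proteins Gbp2 and Gbp3, interferon-induced GTPases, ranged from 4.77 to 17.6 and from 3.80 to 12.6.

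**Figure D1:**
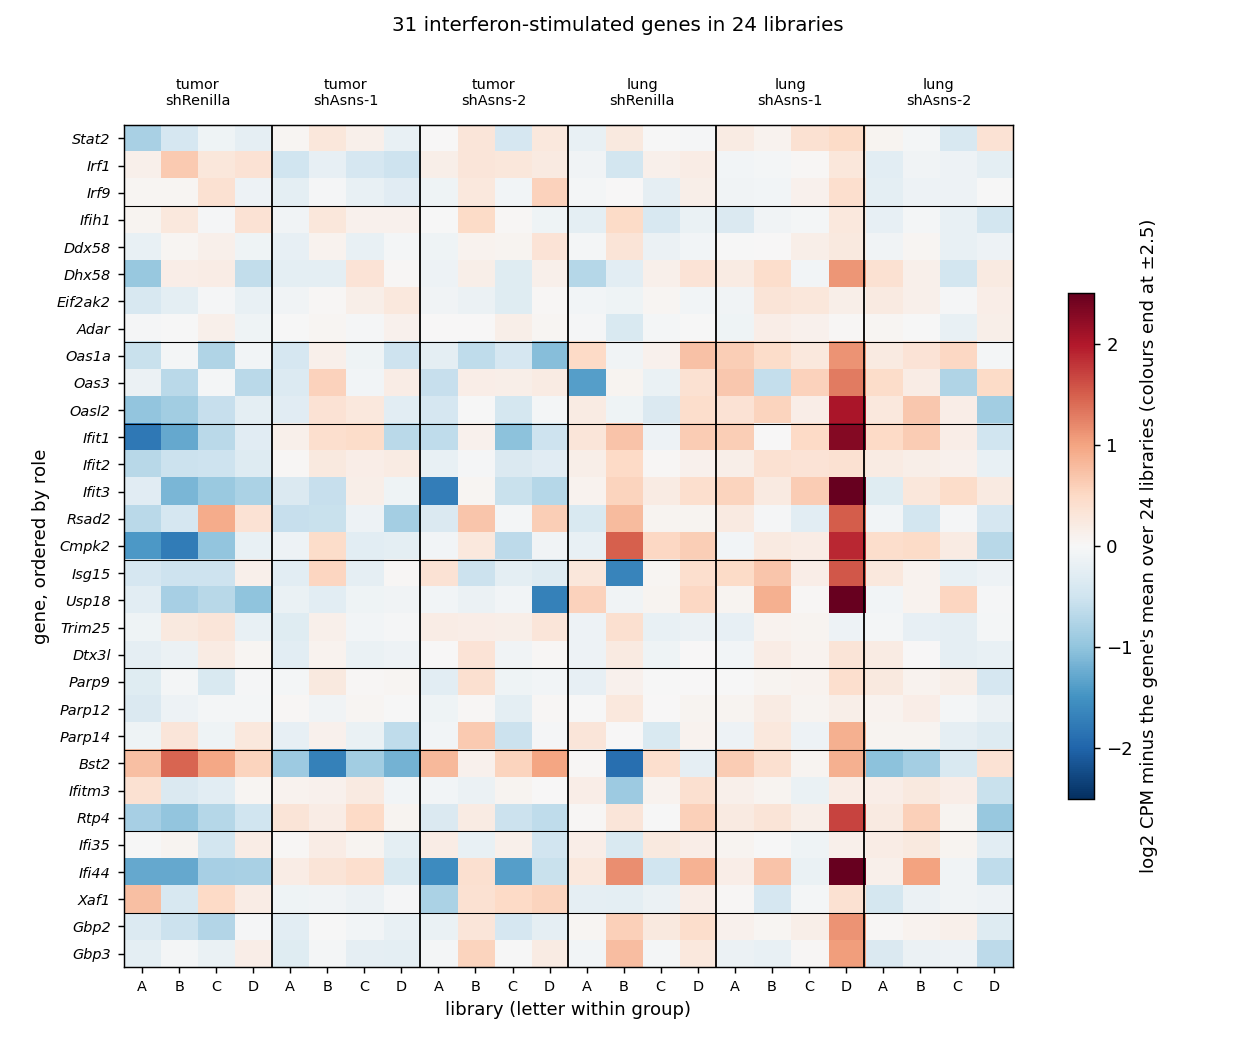
Heat map of 31 interferon-stimulated genes (vertical axis, ordered by role) in 24 libraries (horizontal axis, letter within each of 6 groups); colour gives log2 CPM minus the gene's mean, red higher and blue lower. The column of lung shAsns-1 D has the deepest red, in Ifi44, Ifit3 and Usp18, while the tumor shRenilla columns are blue for Ifit1, Ifit2 and Ifi44.

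One library, lung shAsns-1 D, carried most of the high values. It was singled out in these genes beforehand. The shares, medians and ranks given for it here and below are thus a description and no further evidence. Of the 35 genes, 21 had the highest level of all 24 libraries there, 17 of the 31 tested genes (54.8%) among them, against 440 of the 12625 tested genes (3.49%). The mean log2 CPM of the 31 genes was 3.67 in D and 2.74 to 2.80 in A to C. Ifi44 stood at 2.13, 3.15, 1.69 and 28.1 CPM in lung shAsns-1 A, B, C and D, and did not exceed 4.36 CPM in any other library. Ifit3 stood at 1.45, 1.13, 1.52 and 12.8 CPM in the same libraries. Usp18, which removes ISG15 and restrains the interferon receptor, stood at 1.18, 2.14, 1.15 and 8.42 CPM. For each of these genes D was above every other library of the 24, while A to C of Ifi44 and Usp18 themselves spread by nearly 2-fold. That Ifi44 value rests on 729 counts, Ifit3's on 331 and Usp18's on 218.

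Against the mean of A to C, 12 of 31 genes were at least 2-fold higher in D and 0 at least 2-fold lower. Over all tested genes 1.08% (136 genes) were at least 2-fold higher and 38 at least 2-fold lower. With 1 library on 1 side this has no test. The median log2 difference was 0.52 over the 31 genes and -0.0081 over all tested genes, and 28 of 31 differences were positive. The largest differences on the log2 scale were 3.61 for Ifi44 (rank 2 of 12625 genes), 3.17 for Ifit3 (rank 9), 2.50 for Usp18 (rank 18) and 1.93 for Ifit1 (rank 36). On CPM these are ratios of 12.1, 9.35, 5.65 and 3.78. Then came Cmpk2 (1.77), Oasl2 (1.68), Rsad2 (1.53), Rtp4 (1.45), Gbp3 (1.14), Isg15 (1.11), Oas3 (1.07, on 16 counts) and Gbp2 (1.02). Gbp2 was the last inside the 2-fold line and Dhx58 (0.92) the first outside it.

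The difference was uneven across roles. Of the effectors 4 of 5 tested genes were past 2-fold, of the OAS enzymes 2 of 3, of the ISG15 pathway 2 of 4, and both guanylate-binding proteins. None of the 3 tested transcription factors, the 5 RNA sensors or the 3 PARP genes was. Irf7, the transcription factor that did not pass the filter, stood at 0.0761, 0.234, 0.161 and 1.00 CPM in lung shAsns-1 A, B, C and D. Ifit1 stood at 5.79, 3.78, 5.30 and 18.7 CPM in lung shAsns-1 A, B, C and D, whereas Ifit2, from the same gene cluster on chromosome 19, stood at 22.4, 26.4, 25.6 and 26.1. So D led in Ifit1 but lay within its group in Ifit2, whose log2 difference was 0.075. Parp12 (0.033), Eif2ak2 (-0.020), Adar (-0.030) and Trim25 (-0.11) also lay close to A to C. The 4 untested genes were highest in D too: Irf7 at 1.00 CPM (26 counts), Mx2 at 1.04 (27 counts), Mx1 at 0.888 (23 counts) and Oas2 at 0.463 (12 counts). Elsewhere these 4 did not exceed 0.385 CPM.

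**Figure D2:**
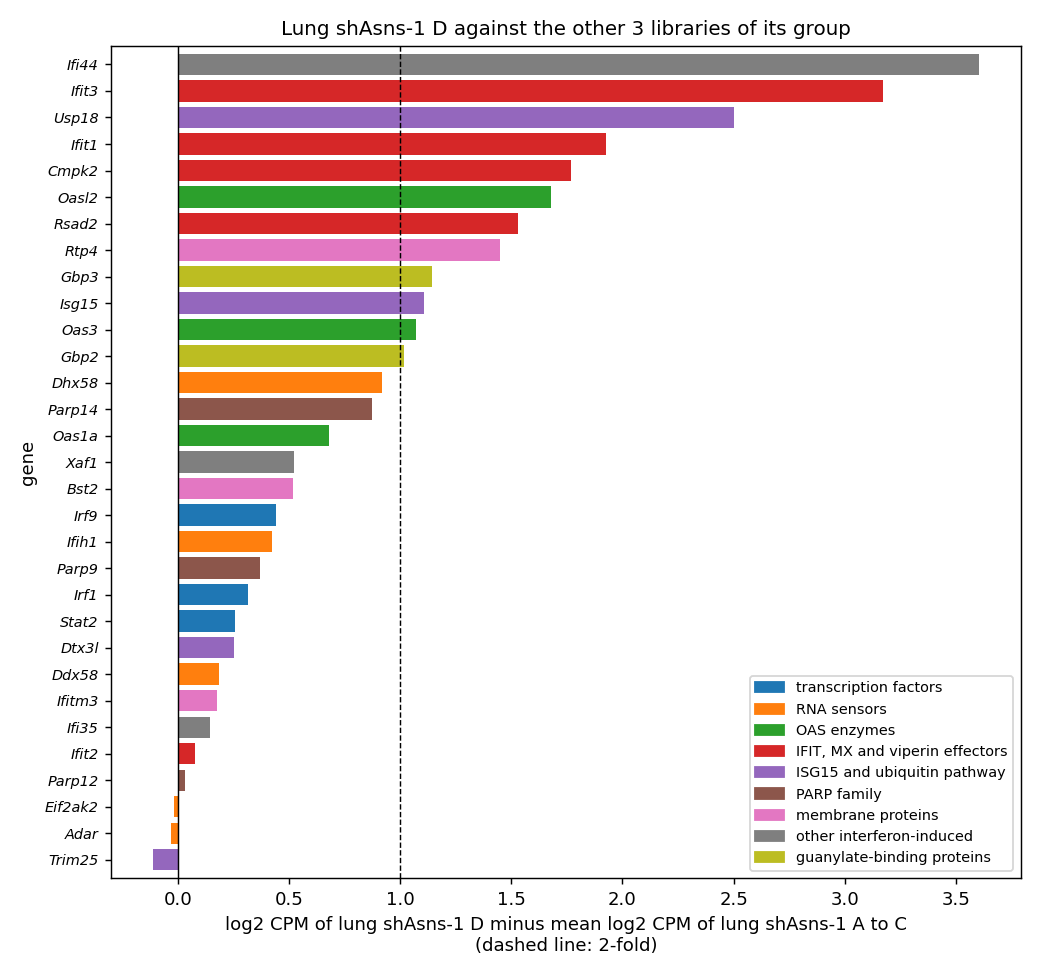
Bars give, for 31 genes (vertical axis, colour by role), log2 CPM of lung shAsns-1 D minus the mean log2 CPM of lung shAsns-1 A to C (horizontal axis; the dashed line is 2-fold). The 12 genes from Ifi44 to Gbp2 pass the line, and Eif2ak2, Adar and Trim25 lie just below 0.

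Of the genes with the ISRE-type motif 7 of 14 were at least 2-fold higher in D, with a median log2 difference of 0.85. Of the 12 tested genes whose windows lacked it, 3 were, with a median of 0.28. Ifi44, Cmpk2 and Oasl2 are these 3. Both medians lie above the -0.0081 of all tested genes. Usp18 and Rtp4, also past 2-fold in D, had no promoter entry and are in neither set. These are values of 1 library, and a link between the motif and the levels in D was not tested.

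The other genes of the pathway followed in part. Of 65 tested genes on a list of 80 further interferon genes, 8 were at least 2-fold higher in D, with a median log2 difference of 0.17. They were Zbp1, a sensor of left-handed nucleic acid (2.16), the immunity-related GTPases Igtp (1.81), Ifi47 (1.61) and Irgm2 (1.47), Trim30a (1.50), the helicase Ddx60 (1.50), Gbp4 (1.05) and Phf11d (1.04). None of the 6 receptor chains or the 5 genes of the JAK-STAT core was past 2-fold, with medians of 0.16 and -0.050. The 8 listed ligands, Ifnb1 and Ifng among them, passed no filter: none had more than 4 counts in D or more than 8 in any library.

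Markers of other cells were also higher in D. The 9 fibroblast markers summed to 70.2 CPM in D and 34.3 to 35.6 in A to C, and 4 of the 5 tested were at least 2-fold higher. Pdgfra, the other tested marker, made up 41.2 CPM of the sum in D and 28.4 to 30.8 in A to C. Col3a1 stood at 1.60, 0.311, 0.669 and 8.53 CPM in lung shAsns-1 A, B, C and D, Dcn at 2.40, 2.92, 1.31 and 8.61 and Col1a1 at 0.381, 0.0778, 0.348 and 1.39. The 9 of 10 leukocyte markers in the table summed to 10.9 CPM in D and 3.81 to 6.78 in A to C, of which Lyz2 made up 7.84 in D. The defining leukocyte marker Ptprc stood at 0.267, 0.195, 0.562 and 0.309 CPM in lung shAsns-1 A, B, C and D. Tyrobp stood at 0.190, 0.0389, 0.0803 and 0.309 and Laptm5 at 0.0381, 0.0389, 0.0535 and 0.193, both highest of the 24 libraries in D, on 8 and 5 counts. In D the plasmacytoid marker Siglech was at 0 and the endothelial markers Pecam1 and Cdh5 at 0.541 and 0.232. The endothelial markers summed to 0.723 to 1.12 CPM over lung shAsns-1 A to D and the plasmacytoid markers, mostly Tcf4, to 186 to 225. The epithelial markers summed to 425 CPM in D and 421 to 474 in A to C. Bst2 is both a member and a plasmacytoid marker. The part of these markers in the high values of D was not tested.

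**Figure D3:**
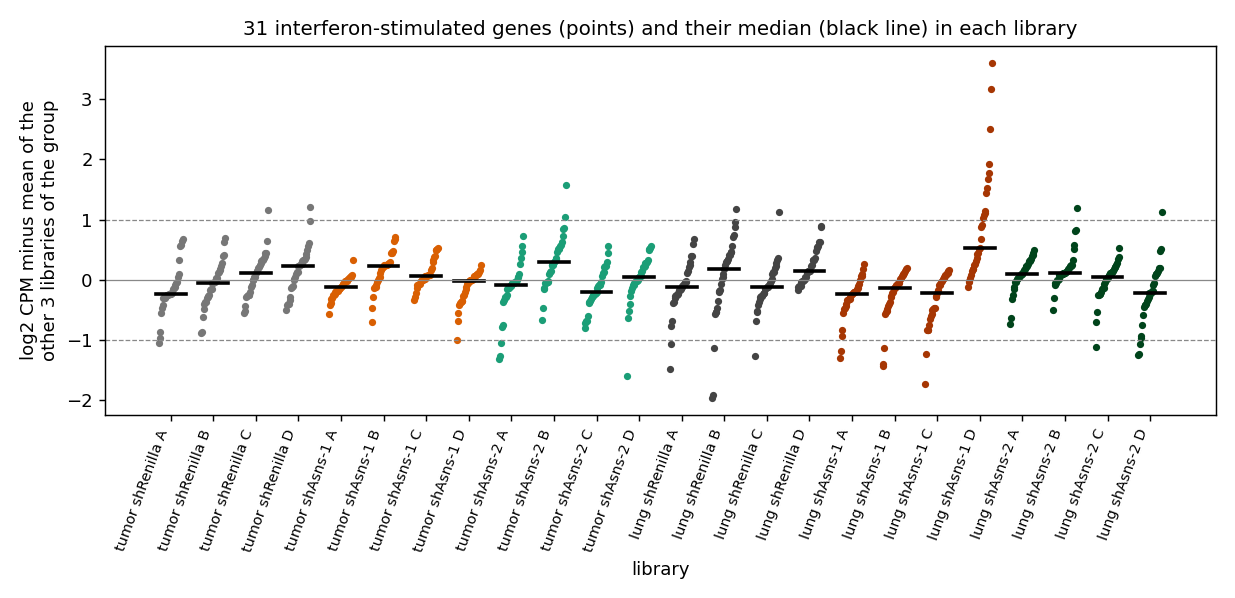
Each point is 1 of 31 genes in 1 of 24 libraries (horizontal axis); the vertical axis gives log2 CPM minus the mean of the other 3 libraries of its group, black lines the medians and dashed lines 2-fold. Lung shAsns-1 D reaches 3.61 with a median of 0.52, and in no other library are more than 2 genes above the upper line.

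No other library came near that count. In the other 23, between 0 and 2 genes were at least 2-fold above the rest of their group, and between 0 and 3 at least 2-fold below. Tumor shAsns-2 B had 2 above, Ifi44 and Ifit3. Lung shRenilla B had 1 above (Cmpk2) and 3 below: Bst2, Isg15 and Ifitm3. Ifitm3 stood at 262, 124, 249 and 311 CPM in lung shRenilla A, B, C and D and Isg15 at 2.05, 0.481, 1.72 and 2.26. B was the lowest of its group in both, and the lowest of all 24 libraries.

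In cells from primary tumors, the libraries labelled shAsns-1 were compared with shRenilla, the question being what differs between these labels at the primary site. Of 31 genes, 5 were called by edgeR's quasi-likelihood test at a Benjamini-Hochberg adjusted p under 0.05 over all tested genes, 3 higher and 2 lower, where 33.9% of all tested genes were called. In this fit of all 24 libraries the members' share is thus below the background. The median log2 fold change was 0.13 over the 31 genes and -0.015 over all tested genes. The called genes did not share a direction: Ifit2, Rtp4 and Eif2ak2 rose, while Irf1 and Bst2 fell. In all 5, tumor shAsns-1 overlapped lung shRenilla. Ifit2 ranged from 20.4 to 23.9 CPM against 20.4 to 28.5 in lung shRenilla, and Rtp4 from 6.00 to 8.03 against 5.66 to 8.64. Eif2ak2 ranged from 34.4 to 44.2 against 34.3 to 38.2, Irf1 from 25.0 to 31.1 against 26.1 to 41.1 and Bst2 from 0.193 to 0.395 against 0.160 to 1.08.

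Ifit2, an RNA-binding inhibitor of translation, stood at 12.5, 13.8, 14.0 and 16.1 CPM in tumor shRenilla A, B, C and D. In tumor shAsns-1 it stood at 20.4, 23.9, 22.6 and 23.3, and in tumor shAsns-2 at 17.7, 19.7, 15.6 and 16.5. All 4 shAsns-1 libraries lay above both other tumor groups, whose own ranges overlapped. Against shRenilla it rose by a log2 fold change of 0.68 ± 0.12 (SE, adjusted p = 7.55e-05), and against shAsns-2 by 0.38 ± 0.12 (adjusted p = 0.0199). The call against shAsns-2 was lost in 2 of 17 alternatives, with adjusted p from 0.00113 to 0.257.

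Irf1, a transcription factor that interferon gamma induces directly, went the other way. It stood at 39.2, 56.1, 43.7 and 46.0 CPM in tumor shRenilla, 25.4, 31.1, 26.8 and 25.0 in tumor shAsns-1 and 39.7, 44.5, 43.7 and 42.0 in tumor shAsns-2. The shAsns-1 libraries were below all 8 others. Irf1 fell against shRenilla (-0.77 ± 0.13, adjusted p = 3.49e-05) and against shAsns-2 (-0.65 ± 0.13, adjusted p = 0.000393). Both calls held in 17 of 17 alternatives.

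Bst2, which tethers budding virus to the cell surface, stood at 1.37, 2.28, 1.60 and 1.19 CPM in tumor shRenilla, 0.381, 0.193, 0.395 and 0.305 in tumor shAsns-1 and 1.43, 0.850, 1.18 and 1.62 in tumor shAsns-2. These are low levels, yet shAsns-1 did not overlap either group. Bst2 fell by 2.31 ± 0.39 on the log2 scale against shRenilla (adjusted p = 6.42e-05) and by 1.91 ± 0.42 against shAsns-2 (adjusted p = 0.00123), in 17 of 17 alternatives each.

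Rtp4, an interferon-induced inhibitor of viral RNA replication, stood at 3.19, 2.85, 3.44 and 4.03 CPM in tumor shRenilla, 7.13, 6.44, 8.03 and 6.00 in tumor shAsns-1 and 4.42, 6.61, 3.92 and 3.64 in tumor shAsns-2. It rose against shRenilla without overlap (1.03 ± 0.30, adjusted p = 0.00998) and overlapped shAsns-2. Eif2ak2, the kinase PKR, averaged 39.2 ± 4.22 CPM in shAsns-1 and 31.8 ± 3.42 in shRenilla and rose slightly (0.30 ± 0.11, adjusted p = 0.0316) with overlapping groups. Its call was lost in 7 of 17 alternatives. Ifit1 missed the threshold, with a log2 fold change of 1.05 ± 0.41 and adjusted p = 0.0516 by edgeR, at 1.99 ± 0.906 CPM in shRenilla and 4.15 ± 1.31 in shAsns-1. With lung shAsns-1 D out of the whole fit, 9 genes of 31 were called in place of 5, beside 32.7% of all tested genes. Of these 7 rose and 2 fell, Ifit1, Ifi44, Cmpk2 and Oasl2 being the additions. On the compared groups alone 10 were called. How far the members' share lay below the background thus differed between the main fit and that without lung shAsns-1 D. Here and below, a count given without the share over all tested genes in its fit cannot be set against the background.

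Tumor shAsns-2 gave no such calls. Against shRenilla 0 of 31 genes were called by edgeR, where 0.0634% of all tested genes were. At an unadjusted p under 0.05 there were 2 genes, Stat2 and Ifit2, and 893 of 12625 overall. DESeq2 and limma with library weights also called 0. The median log2 fold change was 0.13, with Ifit2 at 0.30 ± 0.12 (adjusted p = 0.596) and Stat2 at 0.44 ± 0.18 (adjusted p = 0.619). Both tumor comparisons share the shRenilla libraries. Of shAsns-1 against shAsns-2, 3 of 31 genes were called (27.1% of all tested genes): Ifit2 higher, Irf1 and Bst2 lower, with a median of 0.024 over the 31. Without tumor shAsns-2 A 5 were called.

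The tumor comparison of shAsns-1 with shRenilla also separated epithelial markers, 6 of 8 of which fell, with summed levels of 454 to 612 CPM against 722 to 881. The fibroblast markers summed to 24.0 to 32.4 CPM against 17.5 to 21.1, and the leukocyte markers to 1.42 to 2.54 against 2.17 to 3.78. Most of the fibroblast sum was Pdgfra, at 23.1 to 31.5 CPM against 14.5 to 17.1. Postn went the other way, at 0.0385 to 0.114 CPM against 1.89 to 3.47. In tumor shAsns-2 the sums were 903 to 1027, 19.0 to 23.3 and 2.83 to 3.47 CPM, and 6 of 8 epithelial markers were lower in shAsns-1 than there. The part of these in the gene calls was not tested.

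**Figure D4:**
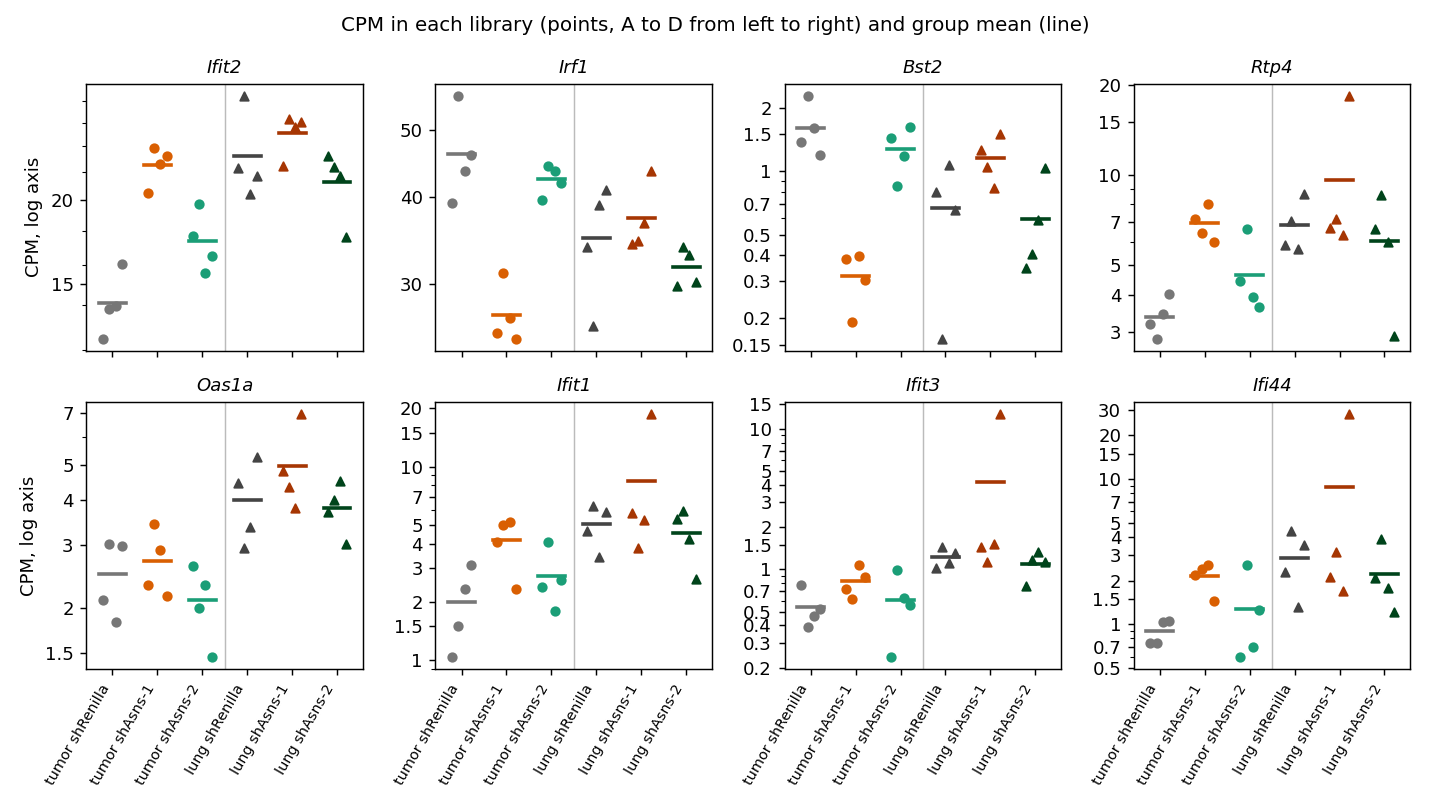
CPM of 8 interferon-stimulated genes (1 panel each, log axis) in each library (points) of the 6 groups (horizontal axis), with group means as lines. Ifit2, Irf1 and Bst2 separate tumor shAsns-1 from the other tumor groups, and the highest point of Rtp4, Oas1a, Ifit1, Ifit3 and Ifi44 is lung shAsns-1 D.

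In cells from lung metastases no gene of the 35 was called between hairpins. For shAsns-1 against shRenilla 0 of 31 were called by edgeR, where 0.206% of all tested genes were. At an unadjusted p under 0.05 there were 7 (Oas3, Oasl2, Ifit3, Isg15, Usp18, Bst2 and Ifi44, all higher) and 1665 overall. DESeq2 called 0 and limma with library weights 1, Ifit2. The median log2 fold change of 0.17 over the 31 genes became 0.040 without lung shAsns-1 D. Ifit3 had the smallest p, at a log2 fold change of 1.77 ± 0.51 (adjusted p = 0.201), with 1.02, 1.44, 1.11 and 1.31 CPM in lung shRenilla against the values above. Groups overlapped for all 7. The epithelial markers Epcam (-0.94 ± 0.15, adjusted p = 0.00248) and Krt7 (-1.27 ± 0.25, adjusted p = 0.0238) fell in this comparison, and without lung shAsns-1 D Epcam alone was called. The fibroblast markers Col3a1 (2.94), Col1a2 (2.19) and Dcn (1.42) and the myeloid marker Lyz2 (1.43) had an unadjusted p under 0.05 and were not called. Of the other tested fibroblast and leukocyte markers, Pdgfra (-0.020), Ptprc (-0.069) and Cd68 (-0.32) were negative and Postn (0.58) positive, none called. The part of these markers in the values was not tested.

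For lung shAsns-1 against lung shAsns-2, 0 of 31 genes were called by edgeR and 0.261% of all tested genes. Without lung shAsns-1 B 1 was called. At an unadjusted p under 0.05 there were 12, all higher in shAsns-1, and 707 overall; DESeq2 called 0 and limma 1, Bst2. The median of 0.38 over the 31 genes became 0.10 without lung shAsns-1 D, while that of all tested genes was 0.0071 with it. Here Col3a1 rose (4.18 ± 0.79, adjusted p = 0.0145) and Epcam (-0.94, adjusted p = 0.00424) and Krt7 (-1.29, adjusted p = 0.0197) fell, beside uncalled values of 2.70 for Col1a2, 2.00 for Dcn and 1.65 for Lyz2. Pdgfra ranged from 28.4 to 41.2 CPM against 22.1 to 24.9 in lung shAsns-2. Postn (0.0778 to 0.502 against 0.0325 to 0.320), Ptprc (0.195 to 0.562 against 0.127 to 0.358) and Cd68 (1.61 to 2.06 against 1.46 to 2.67) overlapped. Without lung shAsns-1 D Epcam was the only marker called, and the markers' part was not tested. For lung shAsns-2 against shRenilla, 0 of 31 genes and 0% of all tested genes were called. Gbp3 alone reached an unadjusted p under 0.05, with 4.88 ± 0.803 CPM against 7.31 ± 2.13 (-0.58 ± 0.23, adjusted p = 0.486), as did 1068 genes overall. DESeq2 called 0 and limma 1, Bst2. The median was -0.11. All lung comparisons with the control share the lung shRenilla libraries, and the spread of Isg15, Ifitm3 and Bst2 there includes library B.

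Lung was compared with tumor within each hairpin. With the control shRenilla, 8 of 31 genes were called (21.8% of all tested genes), 6 higher in lung and 2 lower, with a median log2 fold change of 0.17 over the 31 and 0.00099 over all. Ifit2 stood at 22.3, 28.5, 20.4 and 21.7 CPM in lung against the tumor values above, without overlap, and rose by 0.72 ± 0.12 (adjusted p = 4.76e-05). Cmpk2, a mitochondrial nucleotide kinase, rose from 0.371, 0.285, 0.534 and 0.981 CPM in tumor to 0.985, 3.30, 1.65 and 1.76 in lung (1.82 ± 0.45, adjusted p = 0.00383). Ifit1 rose from 1.04, 1.50, 2.34 and 3.08 to 4.62, 6.22, 3.40 and 5.84 CPM (1.33 ± 0.41, adjusted p = 0.0206). For these genes all 4 lung libraries lay above all 4 tumor libraries.

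Gbp2 rose from 6.31, 5.52, 4.77 and 7.81 CPM to 8.30, 12.1, 9.46 and 10.9 (0.74 ± 0.21, adjusted p = 0.0104), again without overlap. Rtp4 rose to 5.83, 7.06, 5.66 and 8.64 CPM (1.01 ± 0.30, adjusted p = 0.0168), and Oas1a, the only OAS enzyme called, rose from 2.49 ± 0.605 to 4.02 ± 1.06 CPM with overlap (0.69 ± 0.22, adjusted p = 0.0269). Bst2 fell to 0.795, 0.160, 1.08 and 0.656 CPM (-1.28 ± 0.36, adjusted p = 0.0110) and Irf1 to 33.9, 26.1, 39.0 and 41.1 (-0.40 ± 0.13, adjusted p = 0.0211). Irf1 overlapped between sites and Bst2 did not. The 2 that fell were lowest in lung shRenilla B, and without that library the call of Irf1 was lost and that of Bst2 was not. Ifit2 and Cmpk2 held in 17 of 17 alternatives, Oas1a in 11. Without tumor shRenilla B, or without lung shRenilla D, 5 genes were called in place of 8. With lung shAsns-1 D out of the whole fit 12 of 31 were, 10 higher and 2 lower, beside 21.1% of all tested genes. Of the epithelial markers 5 of 8 fell in the main fit, with sums of 427 to 599 CPM against 722 to 881 in tumor. The fibroblast markers summed to 26.3 to 51.4 against 17.5 to 21.1 and the leukocyte markers to 4.24 to 4.71 against 2.17 to 3.78. Most of the fibroblast sum was Pdgfra, at 24.7 to 48.1 CPM against 14.5 to 17.1. Dcn was also higher, at 0.932 to 1.67 CPM against 0.178 to 0.420, and Postn was lower, at 0 to 0.227 against 1.89 to 3.47. In the leukocyte sum Lyz2 was higher, at 1.04 to 1.82 CPM against 0.175 to 0.445. Csf1r was lower, at 0 to 0.108 against 0.178 to 0.482, and Ptprc and Cd68 overlapped. The part of these markers in the calls was not tested.

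Within shAsns-2, 3 of 31 genes were called (20.9% of all tested genes). Oas1a rose from 2.63, 2.00, 2.32 and 1.47 CPM in tumor to 3.71, 3.99, 4.52 and 3.02 in lung (0.89 ± 0.24, adjusted p = 0.00809), Irf1 fell to 29.8, 33.9, 33.0 and 30.2 CPM (-0.42 ± 0.13, adjusted p = 0.0175) and Bst2 fell to 0.348, 0.402, 0.586 and 1.03 (-1.06 ± 0.38, adjusted p = 0.0496). Oas1a and Irf1 did not overlap between sites and Bst2 did. Bst2 was lost in 10 of 17 alternatives, and without lung shAsns-2 A 1 gene was called. Epithelial markers summed to 378 to 785 CPM in lung and 903 to 1027 in tumor, with 5 of 8 lower. Fibroblast markers summed to 24.1 to 27.3 CPM against 19.0 to 23.3, without overlap, and leukocyte markers to 2.94 to 4.55 against 2.83 to 3.47. Most of the fibroblast sum was Pdgfra, at 22.1 to 24.9 CPM against 15.5 to 19.1. Postn went the other way, at 0.0325 to 0.320 CPM against 1.42 to 2.84. In the leukocyte sum Lyz2 was higher, at 0.898 to 1.46 CPM against 0.120 to 0.347. Csf1r was lower, at 0.0310 to 0.142 against 0.302 to 0.598, and Ptprc and Cd68 overlapped. The part of these markers was not tested. The median over the 31 genes was 0.070, and Ifit2, at 23.2, 22.4, 21.7 and 17.6 CPM in lung, was not called (0.29 ± 0.12, adjusted p = 0.0849).

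Within the libraries labelled shAsns-1, 6 of 31 genes were called, all higher in lung, where 8.55% of all tested genes were called. The median log2 fold change was 0.47 over the 31 genes and 0.026 over all. Without lung shAsns-1 D it was 0.15, and 1 gene was called, Bst2, with 3.24% of all tested genes. Bst2 rose from 0.381, 0.193, 0.395 and 0.305 CPM in tumor to 1.26, 1.05, 0.829 and 1.51 in lung without overlap (1.82 ± 0.40, adjusted p = 0.00634, and 0.0361 without D). Irf1 rose to 34.3, 34.6, 36.7 and 43.7 CPM (0.46 ± 0.13, adjusted p = 0.0215) and Oas1a from 2.33, 3.43, 2.90 and 2.17 to 4.84, 4.36, 3.80 and 6.95 (0.88 ± 0.22, adjusted p = 0.0138). Both were without overlap, and both missed the threshold without D, at log2 fold changes of 0.37 (adjusted p = 0.133) and 0.67 (adjusted p = 0.106).

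The other 3 calls rested on lung shAsns-1 D. Ifit3 averaged 4.22 ± 5.71 CPM in lung and 0.825 ± 0.198 in tumor, and its log2 fold change of 2.32 ± 0.53 (adjusted p = 0.00763) became 0.71 without D (adjusted p = 0.146). Usp18 averaged 3.22 ± 3.49 and 1.00 ± 0.0592 CPM, and 1.66 ± 0.44 (adjusted p = 0.0195) became 0.55 (adjusted p = 0.312). Ifi44 averaged 8.78 ± 12.9 and 2.14 ± 0.493 CPM, with overlap, and 2.03 ± 0.61 (adjusted p = 0.0393) became 0.10 (adjusted p = 0.918). Tumor shAsns-1 A and D weighed on the count too: without either, 2 genes were called. In lung the fibroblast markers summed to 34.3 to 70.2 CPM against 24.0 to 32.4 in tumor, the leukocyte markers to 3.81 to 10.9 against 1.42 to 2.54 and the epithelial markers to 421 to 474 against 454 to 612. Pdgfra made up 28.4 to 41.2 CPM of the fibroblast sum in lung and 23.1 to 31.5 in tumor. Lyz2 made up 1.36 to 7.84 CPM of the leukocyte sum in lung and 0.0833 to 0.676 in tumor, while Ptprc and Cd68 overlapped between sites. The part of these markers in the calls was not tested.

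**Figure D5:**
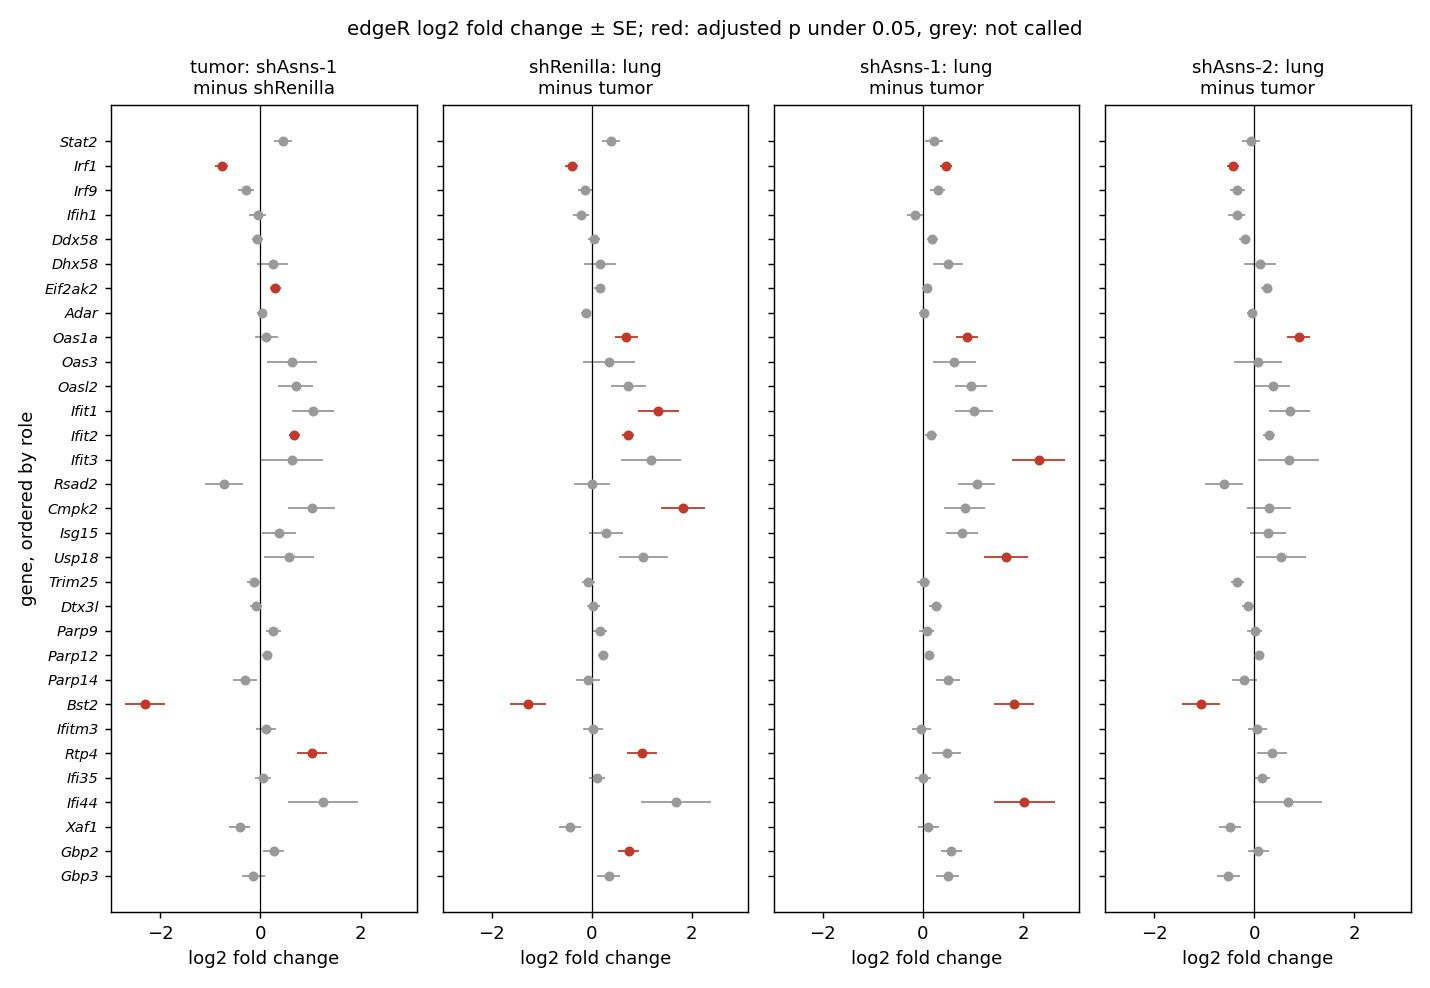
Log2 fold change ± SE by edgeR (horizontal axis) of 31 genes (vertical axis, ordered by role) in 4 comparisons; red marks an adjusted p under 0.05. Bst2 lies at -2.31 for shAsns-1 against shRenilla in tumor, at -1.28 for lung against tumor in shRenilla and at 1.82 for the same in shAsns-1.

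The difference between sites was tested directly. For shAsns-1 against shRenilla, lung minus tumor, 3 of 31 genes were called (14.2% of all tested genes): Bst2 (3.10 ± 0.54, adjusted p = 0.000283), Irf1 (0.87 ± 0.18, adjusted p = 0.00154) and Ifit2 (-0.57 ± 0.16, adjusted p = 0.0213). Each was also called in both tumor comparisons of shAsns-1, which share these tumor libraries. In lung, shAsns-1 against shRenilla stood at 0.79 ± 0.37 for Bst2 (adjusted p = 0.366), 0.092 ± 0.13 for Irf1 (adjusted p = 0.743) and 0.11 ± 0.12 for Ifit2 (adjusted p = 0.661), against -2.31, -0.77 and 0.68 in tumor. Without lung shAsns-1 D 5 genes were called, beside 10.7% of all tested genes. Cmpk2 (-1.66, adjusted p = 0.0374) and Rtp4 (-1.05, adjusted p = 0.0462) were added. Of the epithelial markers 5 of 8 were called in this test, all positive, among them Cdh1 (1.92) and Epcam (1.06), and of the fibroblast markers Postn (5.68) and Pdgfra (-0.81). These epithelial and fibroblast counts were unchanged without lung shAsns-1 D, and the markers' part in the 3 calls was not tested. For shAsns-2, 0 of 31 genes and 0% of all tested genes were called by edgeR, with 4 (Ifit2, Cmpk2, Gbp2 and Gbp3, all negative) and 599 at an unadjusted p under 0.05. DESeq2 and limma also called 0 of the 31 there.

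The remaining genes that varied most among libraries, at a mean of at least 5 CPM, differed in pattern. Rtp4 stood at 6.66, 7.12, 6.31 and 18.4 CPM in lung shAsns-1 A, B, C and D and at 6.62, 8.61, 5.99 and 2.91 in lung shAsns-2. Gbp2 stood at 6.64, 7.98, 7.61 and 7.05 CPM in tumor shAsns-1, 7.17, 9.93, 6.00 and 6.83 in tumor shAsns-2, 8.64, 8.33, 8.94 and 17.6 in lung shAsns-1 and 8.17, 8.55, 8.82 and 6.40 in lung shAsns-2. For both the highest library was lung shAsns-1 D, and lung shAsns-2 D was the lowest of its group.

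Gbp3 stood at 5.08, 5.84, 5.41 and 6.83 CPM in tumor shRenilla, 4.88, 5.86, 5.19 and 5.08 in tumor shAsns-1 and 5.86, 8.91, 5.96 and 6.93 in tumor shAsns-2. In lung it stood at 5.80, 10.3, 5.84 and 7.27 in shRenilla, 5.48, 5.33, 6.18 and 12.6 in shAsns-1 and 4.72, 5.48, 5.50 and 3.80 in shAsns-2. Lung shAsns-1 D and lung shRenilla B were the 2 highest, and tumor shAsns-1 and tumor shAsns-2 barely overlapped.

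Xaf1, an interferon-induced antagonist of XIAP, stood at 15.4, 6.95, 13.0 and 10.4 CPM in tumor shRenilla, 8.50, 8.55, 8.20 and 8.99 in tumor shAsns-1 and 5.26, 12.0, 12.9 and 13.4 in tumor shAsns-2. In lung it stood at 7.76, 7.70, 8.21 and 10.2 in shRenilla, 9.33, 6.81, 8.88 and 11.9 in shAsns-1 and 6.71, 8.27, 8.63 and 8.39 in shAsns-2. The spread lay in tumor shRenilla and tumor shAsns-2, and tumor shAsns-1 was the tightest group.

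Stat2, the subunit that carries the activation domain of the ISRE-binding complex, stood at 2.97, 3.92, 4.84 and 4.48 CPM in tumor shRenilla, 5.45, 6.40, 5.69 and 4.58 in tumor shAsns-1 and 5.26, 6.50, 3.92 and 6.32 in tumor shAsns-2. In lung it stood at 4.58, 6.22, 5.20 and 5.16 in shRenilla, 6.05, 5.57, 6.82 and 7.34 in shAsns-1 and 5.48, 5.08, 3.94 and 6.72 in shAsns-2. Lung shAsns-1 D was the highest of all, followed by lung shAsns-1 C, and all of lung shAsns-1 lay above all of tumor shRenilla.

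Ifih1 stood at 11.9, 13.6, 11.2 and 14.6 CPM in tumor shRenilla, 10.8, 13.9, 12.3 and 12.3 in tumor shAsns-1 and 11.4, 15.9, 11.6 and 10.6 in tumor shAsns-2. In lung it stood at 9.58, 15.9, 8.64 and 10.2 in shRenilla, 8.83, 10.7, 11.0 and 13.6 in shAsns-1 and 9.91, 11.0, 9.99 and 8.28 in shAsns-2. Tumor shAsns-2 B and lung shRenilla B were the highest, and no comparison called Ifih1 in the main edgeR fit. Without lung shRenilla B edgeR called it lower in lung than in tumor with shRenilla (-0.43, adjusted p = 0.0404). With all libraries limma with library weights did so too (-0.45, adjusted p = 0.00390).

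Ifi35 stood at 17.2, 18.4, 12.6 and 20.0 CPM in tumor shRenilla, 17.7, 20.0, 18.3 and 14.7 in tumor shAsns-1 and 19.8, 15.2, 19.2 and 12.5 in tumor shAsns-2. In lung it stood at 19.5, 13.4, 20.8 and 19.5 in shRenilla, 18.4, 17.2, 16.2 and 19.1 in shAsns-1 and 19.8, 20.8, 18.4 and 14.6 in shAsns-2. Groups overlapped throughout. Ifitm3, the highest member per kb, stood at 305, 184, 196 and 242 CPM in tumor shRenilla, 249, 253, 277 and 224 in tumor shAsns-1 and 226, 213, 247 and 237 in tumor shAsns-2. In lung shAsns-1 it stood at 256, 246, 210.2 and 268 and in lung shAsns-2 at 263, 279, 264 and 159.8. The lowest value was in lung shRenilla B and the next in lung shAsns-2 D, both of which departed from their groups over all genes.

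Of the 65 tested genes of the interferon pathway outside the 35, 21 rose and 11 fell in tumor shAsns-1 against shRenilla, with a median log2 fold change of 0.29, beside the 33.9% called over all tested genes. The smallest p belonged to Ifi203, a nucleic acid sensor of the p200 family (173 ± 13.0 against 69.0 ± 5.48 CPM, 1.33 ± 0.11, adjusted p = 1.81e-09), and to Phf11d (1.91 ± 0.26, adjusted p = 3.06e-06). Jak2 rose as well (0.91 ± 0.15, adjusted p = 3.24e-05), and the chemokine Cxcl10 fell (-0.94 ± 0.17, adjusted p = 0.000164). Of the 6 receptor chains 5 fell and none rose. Ifngr1 averaged 22.0 ± 3.91 CPM in shAsns-1, 50.04 ± 9.11 in shRenilla and 43.8 ± 6.67 in shAsns-2 (-1.19 ± 0.18 against shRenilla, adjusted p = 1.29e-05). Ifnar2 averaged 19.2 ± 1.31, 28.7 ± 3.40 and 28.3 ± 4.75 CPM, and Ifngr2 15.7 ± 1.60, 24.6 ± 2.94 and 21.6 ± 3.27. Ifnlr1, the chain for lambda interferon, averaged 0.986 ± 0.329 CPM in shRenilla, 0.977 ± 0.254 in shAsns-2 and 0.145 ± 0.0640 in shAsns-1 (-2.79 ± 0.38, adjusted p = 3.84e-06).

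Of the 5 genes of the JAK-STAT core, 3 rose and 0 fell. Jak1 (236 ± 10.7 against 185 ± 12.5 CPM), Jak2 (81.1 ± 10.3 against 43.2 ± 2.72) and Tyk2 (4.39 ± 0.611 against 2.76 ± 0.574) rose in tumor shAsns-1 against shRenilla, all by edgeR. Stat3 averaged 37.3 ± 2.37 against 37.0 ± 4.66 CPM and was not called. Lung against tumor gave 26 higher and 4 lower of 65 in shRenilla (21.8% called over all tested genes), 12 and 7 in shAsns-2 (20.9%), and 10 and 0 in shAsns-1 (8.55%). Without lung shAsns-1 D the last became 4 and 0, with 3.24% over all. Between hairpins in lung 0.206% of all tested genes were called for shAsns-1 against shRenilla, 0% for shAsns-2 against shRenilla and 0.261% for shAsns-1 against shAsns-2. In these comparisons 1 gene of the 65 was called, Socs3, a restraint on cytokine signals, higher in shAsns-1 than in shRenilla (4.81 ± 0.420 against 2.47 ± 0.775 CPM, 0.95 ± 0.17, adjusted p = 0.00792). In tumor shAsns-2 against shRenilla 0 of 65 were called by edgeR, beside 0.0634% over all tested genes and with 6 of the 65 at an unadjusted p under 0.05.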

How the data were processed

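Total RNA (Trizol) was amplified with NuGEN's Ovation RNAseq V2 kit, per the labels' protocols. The authors deposited whole-number counts per gene symbol. The submitters' processing notes name Bowtie2, HTSeq and the mm10 genome without versions, and the annotation and strand setting are not given in the sources used here. The 35 genes and all gene lists were chosen with earlier results of these data known. From the counts, edgeR 4.0.16 (R 4.3.3) was fitted to all 24 libraries and 6 groups, with TMM scaling, filterByExpr and the robust quasi-likelihood test. Benjamini-Hochberg adjustment ran over all genes of a comparison, with a threshold of 0.05. CPM and log2 CPM (prior count 2) are on TMM-scaled library sizes. The biological coefficient of variation was 14.9%. The SE of a log2 fold change is its size divided by the root of the F statistic. Differences of single libraries are of log2 CPM, and the fold ranks follow from them.

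Genes named for a comparison are the called members, at most 12, by smallest p. Values in every library are given for the 10 members with the largest SD of log2 CPM among those with a mean of at least 5 CPM, and for members on which a result turns (Bst2, Ifit1, Ifit3, Ifi44, Usp18, Cmpk2, Oas1a, Isg15), the latter chosen after their values were seen. Pathway genes are at most 6 called per comparison, with receptors and genes of the JAK-STAT core (1 result is not reported here). Alternatives were DESeq2 1.42.0, limma 3.58.1 with library weights, DESeq2 size factors, no filter, a replicate block, thinned counts, only the compared groups, each library left out, and fits without the libraries that stood apart. The scripts were tested on simulated data. Figures were drawn with matplotlib 3.10.9 in Python 3.11.15. Promoters were taken from RefSeq, with no entry used for Rtp4, Dhx58, Oas2, Parp9, Parp14, Usp18, Mx1 and Mx2.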

Additional observations from a re-analysis of the deposited data

Results flagged for a closer look

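In 186 sets of 4 libraries (31 genes in 6 groups), the highest or lowest library lay beyond Dixon's 95% limit on log2 CPM 13 times (6.99%), where chance gives about 1 in 20 for independent sets. On the CPM scale it did so 17 times, 10 of them in lung shAsns-1 D. The genes vary together, and lung shAsns-1 D was singled out in these genes beforehand, so its values here are a description and no further evidence. CPM are printed. On log2 CPM, lung shAsns-1 D accounted for 4, as the highest of its group: Ifit3 at 12.8 CPM against 1.13 to 1.52 in the others, Cmpk2 at 4.32 against 1.07 to 1.32, Rtp4 at 18.4 against 6.31 to 7.12, and Gbp2 at 17.6 against 8.33 to 8.94. The mean log2 CPM of the 31 genes was 3.67 there against 2.74 to 2.80, which restates the same values. Lung shRenilla B accounted for 3: Adar lowest at 15.9 CPM (others 19.9 to 20.5), Ifi35 lowest at 13.4 (others 19.5 to 20.8) and Trim25 highest at 87.1 (others 58.2 to 60.04). Tumor shAsns-2 A, the shallowest library, was lowest in Oas3 at 0.120 CPM (others 0.243 to 0.253) and in Xaf1 at 5.26 (others 12.0 to 13.4). The others were Isg15 highest in tumor shRenilla D at 1.82 CPM, Usp18 lowest in tumor shAsns-2 D at 0.304, Ifitm3 lowest in lung shAsns-2 D at 159.8 and Xaf1 lowest in lung shAsns-2 A at 6.71.

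For 3 genes the difference of shAsns-1 from shRenilla was itself different between lung and tumor by edgeR's interaction test: Bst2 by 3.10, Irf1 by 0.87 and Ifit2 by -0.57 on the log2 scale.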

How the results depend on the processing

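Of 28 gene calls, 10 held in every alternative run for them and 0 reversed. With limma and library weights 1 gene was called for lung shAsns-1 against shRenilla, 1 for lung shAsns-2 against shRenilla, 1 for lung shAsns-1 against lung shAsns-2, and 7 for shAsns-2 lung against tumor. Thinned to the smallest library, that last comparison gave 0. Fitted on the compared groups alone, counts were 10 for tumor shAsns-1 against shRenilla, 5 for tumor shAsns-1 against shAsns-2 and 3 for shAsns-1 lung against tumor. With lung shAsns-1 D out of the whole fit, an alternative added after seeing the data, tumor shAsns-1 against shRenilla gave 9, beside 32.7% of all tested genes. With shRenilla B and shAsns-2 D of lung out, also added then, tumor shAsns-1 against shAsns-2 gave 5, lung shAsns-1 against shAsns-2 gave 1, lung against tumor gave 10 in shAsns-1 and 5 in shAsns-2. Leaving out 1 library at a time, counts ranged from 4 to 6 for tumor shAsns-1 against shRenilla, 3 to 5 for tumor shAsns-1 against shAsns-2 (5 without tumor shAsns-2 A), and 0 to 1 for lung shAsns-1 against shAsns-2 (1 without lung shAsns-1 B). For lung against tumor they ranged from 5 to 8 in shRenilla (5 without tumor shRenilla B or lung shRenilla D), 1 to 8 in shAsns-1 (1 without lung shAsns-1 D) and 1 to 4 in shAsns-2 (1 without lung shAsns-2 A). For the difference between sites in shAsns-1 they ranged from 3 to 5 (5 without lung shAsns-1 D). The share called over all tested genes also changes with the fit, so these counts alone do not show how members stand to the background. The cause of the changes in these counts was not tested. The labels do not say whether library letters pair the samples. In 0 of 9 comparisons were all 4 same-letter correlations of deviations over 0.1 (lowest -0.41, highest 0.35), and in shAsns-2 lung against tumor 3 of 4 were. With the replicate block 6 genes were called for tumor shAsns-1 against shRenilla, 5 for shAsns-1 lung against tumor, and the same number as without it elsewhere. The number of genes at least 2-fold higher in lung shAsns-1 D was 10 to 12 in every alternative. Depth limits Oas2, Mx1, Mx2 and Irf7, which had 35 to 121 counts over all 24 libraries.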
